A study of Mus musculus with 4 samples.

Results

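The methylation change between induced pluripotent stem cells (iPSCs) and the dopaminergic (DA) neurons derived from them was measured at single cytosine positions of CpG dinucleotides. A position was included when it lay on an autosome and had at least 5 calls in the iPSC library and at least 5 in the iPSC-DA library. Of the 3868125 autosomal positions listed in any of the 4 libraries, 840150 met this rule. The iPSC library listed 2175384 autosomal positions and the iPSC-DA library 1299419. The rule used coverage alone, so the levels played no part in the choice of positions.

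The iPSC library is labelled Pitx3 Gfp/+. The iPSCs of the study had been reprogrammed with retroviral Oct4, Klf4, Sox2 and cMyc from fibroblasts of E14.5 mouse embryos, some Pitx3 Gfp/+ and some Nestin-Gfp. In Pitx3 Gfp/+ mice, 1 copy of Pitx3, a transcription factor of mesodiencephalic dopaminergic (mdDA) neurons, carries green fluorescent protein (GFP). The iPSC-DA neurons carry the same label. They had grown for 4 weeks on MS5 stromal feeder cells with Noggin and a TGF-β inhibitor, then SHH, FGF8 and BDNF with ascorbic acid, then BDNF, GDNF and cyclic AMP, and had been sorted for PITX3-GFP. Which iPSC clone and passage were sequenced, and whether the neurons came from that clone, is not stated in the sources used here. For the regions named below, levels are also given in the other libraries of the series. These are E14.5 mdDA neurons sorted from Pitx3 Gfp/+ embryos, and NESTIN-GFP precursors of 14 days, which the sample label calls neurons of strain Nestin Gfp/+, a reporter other than that of the libraries compared.

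There was 1 library per group. The spread between cultures is therefore unknown, no difference could be tested between cell types, and each value below describes these libraries. Wilson 95% intervals cover counting error only, since calls of 1 read or of PCR copies are not independent. Bisulfite reads 5-methylcytosine and 5-hydroxymethylcytosine alike, so the levels hold the sum of both.

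In mammals, most CpGs that lie far from other CpGs are methylated, while the CpG-dense stretches called CpG islands, which overlap many promoters, are mostly free of methylation. A methylated island promoter is as a rule a silent one. Known exceptions are the promoters of germline genes, which are methylated in somatic cells, and the control regions of imprinted genes, where the copy from 1 parent is methylated. Reduced representation bisulfite sequencing (RRBS) cuts DNA with MspI at CCGG and therefore samples CpG-dense stretches most deeply.

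Promoters of 6 genes show the kinds of change met in these data. The levels of a promoter below come from a window of 300 bases, 250 before and 50 after the start, with the positions of both strands counted. Each sequence printed here holds the 250 bases before the start of transcription from RefSeq (GRCm38.p6), printed 5′ to 3′ in the orientation of the gene, with the CpGs covered in both libraries in capitals. The coordinates of the sequences are those of GRCm38.p6, while runs and groups below carry the coordinates of the files, whose build is not stated and whose chromosome lengths fit NCBIM37, so the numbers differ between them. The first belongs to a testis gene that went from nearly unmethylated to nearly full methylation (Papolb, a poly(A) polymerase of spermatids, minus strand, chr5:142530077-142530326). Ddx4, a helicase that marks germ cells, shows the germline class (minus strand, chr13:112652311-112652560). Plagl1, an imprinted zinc finger gene, shows a gain to an intermediate level (plus strand, chr10:13090582-13090831). Foxa2, a floor plate factor needed for mdDA neurons, shows a gain that mdDA neurons lack (minus strand, chr2:148045949-148046198). Dnmt3b, a de novo DNA methyltransferase, shows a promoter that hardly moved (plus strand, chr2:153649199-153649448). Cck, which codes for the neuropeptide cholecystokinin, shows a loss (minus strand, chr9:121495695-121495944).
Papolb: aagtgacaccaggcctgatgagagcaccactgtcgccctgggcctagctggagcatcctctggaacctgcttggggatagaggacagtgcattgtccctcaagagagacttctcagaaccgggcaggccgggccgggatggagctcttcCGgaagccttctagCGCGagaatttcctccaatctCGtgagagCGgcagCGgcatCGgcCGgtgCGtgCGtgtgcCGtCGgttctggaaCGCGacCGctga
Ddx4: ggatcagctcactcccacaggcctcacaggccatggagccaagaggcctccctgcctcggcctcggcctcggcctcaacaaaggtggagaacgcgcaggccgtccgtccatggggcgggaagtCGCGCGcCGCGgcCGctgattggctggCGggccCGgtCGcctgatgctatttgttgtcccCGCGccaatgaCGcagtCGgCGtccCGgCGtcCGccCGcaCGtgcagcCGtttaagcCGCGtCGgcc
Plagl1: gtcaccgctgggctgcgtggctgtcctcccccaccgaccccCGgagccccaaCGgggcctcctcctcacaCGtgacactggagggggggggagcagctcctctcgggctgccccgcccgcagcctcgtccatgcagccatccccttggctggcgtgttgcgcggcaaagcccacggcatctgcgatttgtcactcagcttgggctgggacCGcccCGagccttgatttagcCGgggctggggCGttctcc
Foxa2: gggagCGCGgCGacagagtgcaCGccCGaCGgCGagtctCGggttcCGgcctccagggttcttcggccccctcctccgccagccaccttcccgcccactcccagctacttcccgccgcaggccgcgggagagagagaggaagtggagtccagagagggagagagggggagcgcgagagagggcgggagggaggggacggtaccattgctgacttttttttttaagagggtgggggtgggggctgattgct
Dnmt3b: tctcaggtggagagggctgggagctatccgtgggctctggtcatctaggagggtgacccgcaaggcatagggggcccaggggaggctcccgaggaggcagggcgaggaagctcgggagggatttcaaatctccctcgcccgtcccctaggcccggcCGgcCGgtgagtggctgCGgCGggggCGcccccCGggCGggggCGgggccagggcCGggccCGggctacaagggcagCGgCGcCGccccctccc
Cck: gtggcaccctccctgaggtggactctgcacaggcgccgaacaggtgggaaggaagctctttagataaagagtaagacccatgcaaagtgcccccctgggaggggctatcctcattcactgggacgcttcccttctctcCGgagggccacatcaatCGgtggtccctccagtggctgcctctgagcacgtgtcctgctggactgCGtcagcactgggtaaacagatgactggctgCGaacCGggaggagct

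The files hold positions without gene names. A promoter was therefore located by matching the spacing of its CpG letters with the spacing of covered positions. Of 32851 promoter sequences, 4274 had a single match in the genome with at least 12 covered positions, and 96.8% of these fell on the chromosome of their gene. After overlapping starts of a gene were merged, 3897 promoters of 3787 genes were placed in this way. A wider search with at least 5 covered positions, held between placed neighbours, was added after the data were seen and brought the total to 6953 promoters of 6651 genes. A promoter placed by the wider search is marked as such below.

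Methylation was higher in iPSC-DA neurons over most of the range. The mean level over positions was 20.4% in iPSCs and 34.8% in iPSC-DA neurons, a mean change of 14.4 points. The median level was 3.33% in iPSCs and 23.4% in iPSC-DA neurons. A gain of at least 20 points was found at 266884 positions, or 31.8% (95% interval 31.7% to 31.9%). A loss of at least 20 points was found at 21243 positions, or 2.53% (2.5% to 2.56%), so that 12.6 positions gained for each that lost. A further 41.9% of positions changed by less than 5 points.

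The direction was shared by all 19 autosomes, whereas its size differed between them. The mean change was lowest on chromosome 16, with 11.4 points, and highest on chromosome 7, with 16.6 points. The share of losing positions ranged from 2.23% on chromosome 19 to 3.06% on chromosome 8. The iPSC library held 68545752 calls in all, the iPSC-DA library 79648099, the mdDA library 72993474 and the NESTIN-GFP library 31419979. The median position had 69 calls in iPSCs (quartiles 31 and 108) and 70 in iPSC-DA neurons (quartiles 28 and 127). The calls on chromosome 10 were raised in iPSC-DA neurons by 0.38 (log2) against the median autosome, while the other autosomes lay between -0.13 and 0.13. The mean change on chromosome 10, 15.8 points, lay within the range of the other autosomes.

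**Figure D1:**
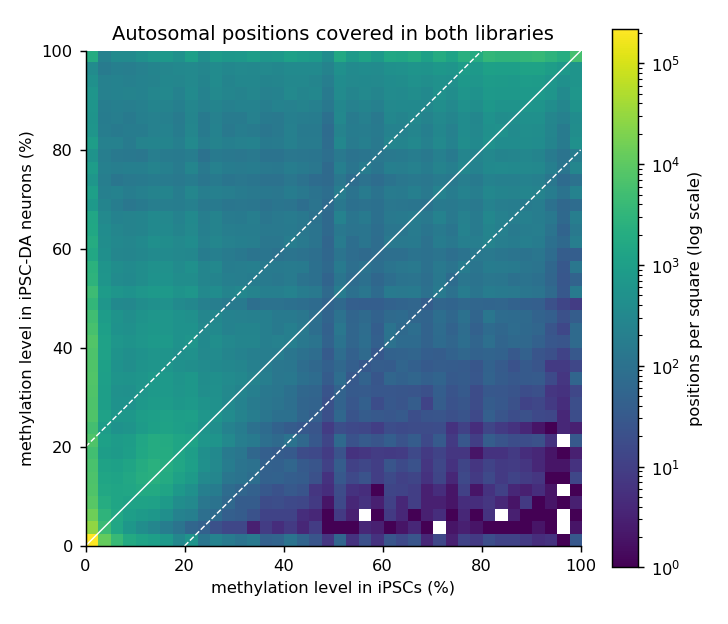
Methylation level (%) of 840150 autosomal positions in iPSCs (x axis) and iPSC-DA neurons (y axis). Colour gives the number of positions per square on a log scale, the solid line marks equal levels and the broken lines a change of 20 points; 31.8% of positions lie above the upper broken line or on it and 2.53% below the lower one or on it.

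The change depended on where a position started. Positions under 20% in iPSCs, 588621 in number, had a mean of 3.55% in iPSCs and 18.5% in iPSC-DA neurons, a mean change of 14.9 points, and 30.2% of them gained at least 20 points. Of these low positions, 64.7% stayed under 20% in iPSC-DA neurons, 31.8% reached between 20% and 80%, and 3.43% reached 80% or more. Positions at 20% to 40% had a mean change of 24.8 points and gained in 50.2% of cases. The share that gained was highest at 40% to 60%, with 64.3% (63.8% to 64.7%) and a mean change of 25.6 points. At 60% to 80%, the mean change was 11.0 points, with 42.3% gaining and 9.26% losing.

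Losses were found chiefly at positions that started high. Of 78781 positions at 80% or more in iPSCs, 15.2% lost at least 20 points (15.0% to 15.5%) and the mean change was -2.93 points. The ceiling leaves no room for a gain of that size above 80%, just as positions under 20% cannot lose 20 points. Only 325 of the 78781 fell under 20% in iPSC-DA neurons, whereas 24.2% ended between 20% and 80%. More than 4 in 5 losing positions, 80.3%, had started at 60% or more, compared with 15.9% of all positions. The median losing position went from 82.1% to 46.3%.

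The opposite strand of the same CpG gave a second reading of the start. Positions that lie next to each other were read as the strands of 1 CpG, which gave 90297 pairs. When a position was binned by the iPSC level of its partner, the mean change was 13.5 points for partners under 20%, 18.8 at 20% to 40%, 24 at 40% to 60% and 12.9 at 60% to 80%. For partners at 80% or more, the mean change was 2.70 points, against -1.44 points when the same paired positions were binned by their own level. The negative mean of the highest bin therefore depended on binning positions by the level that enters the change. The share that lost at least 20 points in that bin was 10.8% by the partner and 13.2% by their own level.

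**Figure D2:**
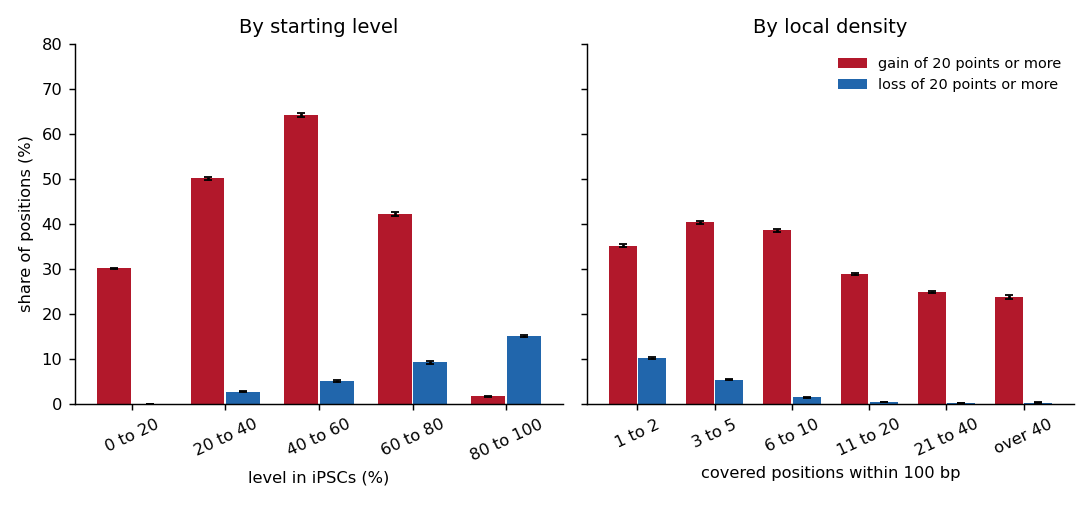
Share of positions (%) that gained or lost at least 20 points, by level in iPSCs (left) and by the number of covered positions within 100 bp on either side (right), with Wilson 95% intervals as error bars. The gaining share peaks at 64.3% for starts of 40% to 60%, and the losing share drops from 10.2% at 1 to 2 covered positions to 0.297% above 40.

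Strand partners separated gains from losses. When the first position of a pair gained, its partner gained in 80.1% of cases, against 30.05% of all first positions. When the first position lost, its partner lost in 25.8% of cases, against 1.22% of all first positions, and the partner was lower by any amount in 58.3%. Both strands gained in 21729 pairs and both lost in 285 pairs. Within a library, strands differed by at least 20 points in 6.76% of pairs in iPSCs and in 14.2% in iPSC-DA neurons. Losing positions also had fewer calls, with a median of 24 in each library, than gaining positions, with 60 in iPSCs and 63 in iPSC-DA neurons. With at least 30 calls required in both libraries, the losing share was 1.34% and the gaining share 29.7%.

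Local density, the number of covered positions within 100 bp on either side with the position itself included, separated losses more strongly than gains. At 1 to 2 positions, 35.2% gained and 10.2% lost. At 3 to 5 positions, 40.3% gained and 5.45% lost. At 6 to 10 positions, 38.6% gained and 1.54% lost. The mean change was 18.2 points at 3 to 5 positions and 19 points at 6 to 10, and with windows of 50 bp their order turned, with 18.3 and 15.4 points. In the densest stretches of over 40 positions, 23.8% gained and 0.297% lost (0.239% to 0.368%). Sparse positions made up 11.9% of all positions at density 1 to 2 but 48.2% of the losing ones, while they made up 13.2% of the gaining ones.

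Starting level and density were linked, so the change was also read by both at once. Mean iPSC levels were 60.8% at density 1 to 2 and 3.65% above 40. Among positions under 20% in iPSCs, the mean change fell from 32.4 points at density 1 to 2 to 11.0 points above 40. Low positions that were isolated thus had a larger mean change than low positions in dense stretches. They also started higher, with iPSC means of 9.76% and 2.09%, and had fewer calls, with iPSC medians of 36 and 95. Positions were binned here by their own level, and the part of start, depth and binning in this difference was not tested. Among positions at 80% or more, 19.2% lost at density 1 to 2, 12.9% at 3 to 5, 8.43% at 6 to 10 and 9.62% at 11 to 20. Their median iPSC calls were 24, 35, 48 and 44 in the same order, and the part of depth was not tested. At 21 to 40, 45.5% of 55 positions lost (33.0% to 58.5%), with medians of 63 calls in iPSCs and 28 in iPSC-DA neurons. Positions of 60% or more in stretches of over 20 were rare. At 60% to 80% and density 21 to 40 there were 125 of them, of which 43.2% lost (34.8% to 52%), with medians of only 10 calls in iPSCs and 13 in iPSC-DA neurons.

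Dense stretches were then followed as runs, defined as at least 10 covered positions with neighbours less than 100 bp apart. There were 17475 runs, which held 66.5% of the positions, with 22 positions in the median run over 242 bp, and medians of 1904 calls in iPSCs and 2181 in iPSC-DA neurons. The level of a run is the methylated share of its pooled calls. A run was called when its calls differed between the libraries by a two-sided Fisher's exact test (Benjamini-Hochberg adjusted p under 0.05 over all runs) and its level by at least 20 points. This test compares 2 libraries, not conditions, and treats linked calls as independent. By this rule 5875 runs gained, 33.6% of all runs, and 16 lost, 0.0916% of all runs. The test on its own called 11098 runs higher and 148 lower, so that the difference of 20 points set the count. The number of losing runs depended on how runs were built, with 7 when strands were merged, 9 with gaps under 50 bp and 27 with gaps under 200 bp.

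Most runs started low. The median run was at 4.73% in iPSCs and 9.03% in iPSC-DA neurons, and 9622 runs moved by less than 5 points. Of 16422 runs under 20% in iPSCs, 31.8% gained. Of 365 runs at 20% to 40%, 89.6% gained, and their median level went from 29.0% to 86.6%. Of 240 runs at 40% to 60%, 87.5% gained, with medians of 49.9% and 89.3%. None of 190 runs at 80% or more gained, since little room was left, and 5 of them lost. The share that gained fell with the size of the run, from 39.9% of runs with 10 to 19 positions to 26.3% (23.8% to 29.0%) of the 1094 runs with 80 or more.

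Most gaining runs ended at intermediate levels. Of the 5875, 42.5% ended between 20% and 40% in iPSC-DA neurons and 35.8% between 40% and 60%, whereas 7.57% ended between 60% and 80% and 14.1% at 80% or more. The runs that ended between 20% and 40% had medians of 4.64% in iPSCs and 34.3% in iPSC-DA neurons. The median of the same runs was 5.43% in mdDA neurons (quartiles 4.37% and 7.08%, 2496 runs with at least 50 mdDA calls), and 99% of them were under 20%. The 827 runs that ended at 80% or more had medians of 32.0% in iPSCs, 91.9% in iPSC-DA neurons and, for mdDA neurons, 93.7% (quartiles 84.3% and 96.3%, 824 runs), and 79% of those 824 were at 80% or more in mdDA neurons. Runs that reached full methylation were thus mostly fully methylated in mdDA neurons as well. Runs that stopped under 60% were mostly unmethylated there, as were most runs. With no minimum of mdDA calls, the mdDA median was 5.74% over all runs and 5.44% over runs that neither gained nor lost. Runs that ended between 60% and 80% were spread in mdDA neurons, with a median of 22.7% (quartiles 9.7% and 56.9%), 47.5% of them under 20% and 11.7% at 80% or more. NESTIN-GFP precursors had medians of 15.0% for runs ending at 20% to 40%, 22% for those at 40% to 60%, 67.2% for those at 60% to 80% and 94.6% for those at 80% or more. At the 840150 positions, that library had a median of 13 calls and mdDA neurons one of 62.

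**Figure D3:**
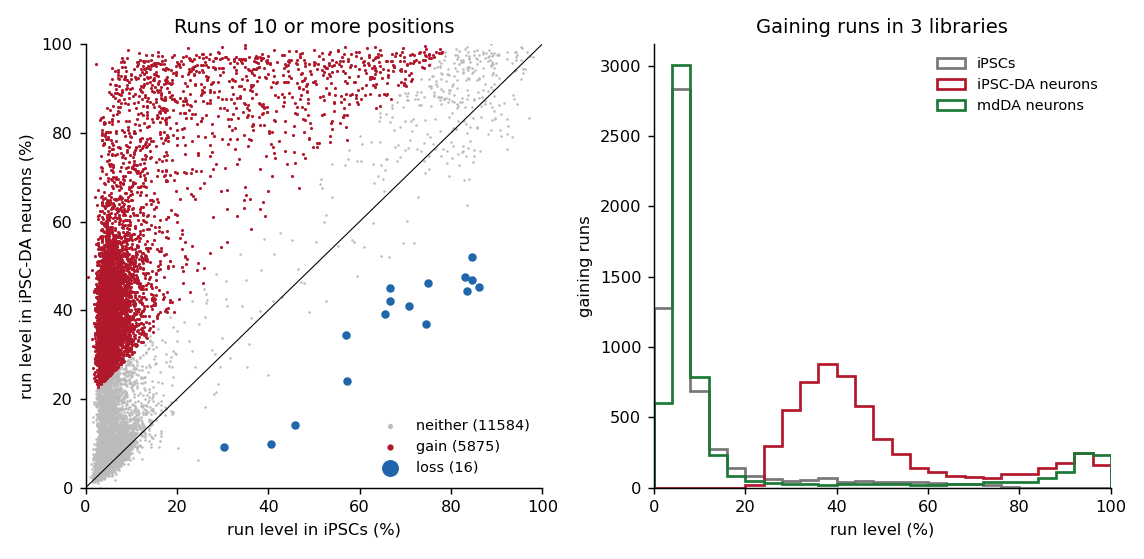
Left, level (%) of each run in iPSCs (x axis) and iPSC-DA neurons (y axis), with the 5875 gaining runs in red, the 16 losing runs in blue and the other 11584 in grey; the line marks equal levels. Right, number of gaining runs by level in the iPSC, iPSC-DA and mdDA libraries (runs with at least 50 mdDA calls); most lie under 20% in mdDA neurons, and 79% of those that end at 80% or more in iPSC-DA neurons are at 80% or more in mdDA neurons.

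Within a gaining run the direction was mostly shared. Of all positions in gaining runs, 97.7% were higher in iPSC-DA neurons and 82.7% gained at least 20 points. In 4157 of the 5875 runs, every position was higher. In gaining runs of at least 20 positions, the mean change was 36.7 points within 24 bp of the edge and 35.2 points from 200 bp inwards. The edge of a run was thus about as changed as its core.

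Gaining runs lay near each other. For runs less than 1 kb apart, the neighbour of a gaining run gained in 88.9% of cases and the neighbour of another run in 5.70%. At 1 to 5 kb these shares were 67.1% and 35.1%, and at 5 to 25 kb 45.1% and 28.8%. At 100 kb or more they were 33.9% and 35.0%, close to the 33.6% of all runs.

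The longest series of consecutive gaining runs, with less than 25 kb between neighbours, held 13 runs each and were looked for after the data were seen. The first spanned 36.4 kb on chromosome 2 (74493578 to 74529969 in the coordinates of the files). Promoters named for a series lay in it or within a few kb of it, and came from either search. For the first series these were Hoxd13 (wider search), Hoxd11 and Hoxd10, homeobox genes that pattern the body axis and limbs. The runs of this series had a median of 5.30% in iPSCs (2.53% to 12.6%), 43.8% in iPSC-DA neurons (29.97% to 65.2%), 29.0% in NESTIN-GFP precursors and 5.98% in mdDA neurons (3.59% to 11.4%). Each run of a series had been called as gaining, so its distance from iPSCs followed from that choice. In this series, the lowest run in iPSC-DA neurons was above the highest in mdDA neurons. Low mdDA levels were common among gaining runs, so the choice of such runs favours this order. Of gaining runs ending at 20% to 40% and at 40% to 60%, 99% and 95.5% were under 20% in mdDA neurons. A further series of 10 runs further along chromosome 2 (74565536 to 74601773) lay at or near the promoter of Hoxd1, with medians of 6.62% in iPSCs and 41.6% in iPSC-DA neurons. The second series of 13 runs, on chromosome 14 (122850060 to 122878418), went from 3.97% to 43.0% and lay between placed promoters that flank 5 protein-coding genes in the gene table, Zic5 and Zic2 among them, zinc finger factors of neural development. Series of 8 to 10 runs lay at or near the promoters of Hmx3, a homeobox factor of the inner ear, Tbx1, a T-box factor of the pharyngeal arches, and Sp9, a zinc finger factor of forebrain interneurons. Their medians in iPSC-DA neurons were 44.0% (Hmx3), 45.3% (Tbx1) and 50.6% (Sp9), and in mdDA neurons 7.90%, 5.07% and 7.51%.

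Among gaining runs of at least 20 positions and at least 500 calls in each library, the 10 largest gains were of 83.9 to 88.6 points. All positions were higher in iPSC-DA neurons in 10 of these 10 runs, an agreement that a choice by size of gain favours. The largest, on chromosome 6 (48547392 to 48547644), had 21 positions between 0% and 22.9% in iPSCs and between 86.1% and 100% in iPSC-DA neurons. Its pooled level went from 5.86% (4.92% to 6.97%, 2030 calls) to 94.5% (93.5% to 95.3%, 2547 calls), with 94.3% in NESTIN-GFP precursors and 97.5% in mdDA neurons. The nearest placed promoter, 4.11 kb away, was that of Zfp775, a zinc finger gene (wider search).

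The second largest gain covered the promoter of Papolb on chromosome 5 (143005799 to 143006131). Its 45 positions had levels of 0% to 42.4% in iPSCs and 86.3% to 100% in iPSC-DA neurons, and the run went from 6.48% (2609 calls) to 93.9% (4393 calls). NESTIN-GFP precursors had 79.5% and mdDA neurons 52.3%. Runs on chromosome 15 (79659035 to 79659405) and chromosome 8 (64028580 to 64028860) shared this pattern, with 93.7% and 92.2% in iPSC-DA neurons and 58.6% and 59.0% in mdDA neurons. In the other 7 of the 10, mdDA neurons were at 80% or more.

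Of the remaining 6, 2 lay on chromosome 7. The run at 4982229 to 4982653, from 5.44% to 91.0%, was 7.35 kb from the promoter of Zfp784, and the run at 134891817 to 134891961, from 8.63% to 92.5%, was 1.48 kb from that of Fbxl19 (wider search). The run on chromosome 14 (55250959 to 55251260) went from 6.68% to 90.7% over 38 positions. It was 8.89 kb from the promoter of Cdh24, a cadherin. The runs on chromosomes 6 (17790516 to 17790857), 13 (34839024 to 34839251) and 2 (150759200 to 150759433) reached 92.9%, 93.8% and 90.9%.

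No run of at least 20 positions lost 20 points. The lowest change among runs of this size with at least 500 calls was on chromosome 13 (120276808 to 120277345), where 72 positions at the promoters of Tmem267 and 3110070M22Rik (wider search) went from 66.5% (16045 calls) to 52.0% (10955 calls). Levels of its single positions spanned 0% to 95.3% in iPSCs and 0% to 100% in iPSC-DA neurons, and 47 of 72 were lower. All 16 losing runs had 10 to 14 positions, and all are given here, a choice made after their values were seen, since the rule for naming runs reached none of them. They lay on 10 chromosomes. The largest adjusted p among them was 8.27e-13 (two-sided Fisher's exact test, Benjamini-Hochberg over 17475 runs). Their changes ran from -40.8 to -21.1 points, and the run nearest to the limit on its other side had -19.6 points.

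The largest loss was on chromosome 6 (114222394 to 114222514). Its 11 positions were between 74.7% and 93.9% in iPSCs and between 30.5% and 100% in iPSC-DA neurons, and 10 were lower. The pooled level went from 86.0% (83.3% to 88.3%, 744 calls) to 45.2% (42.0% to 48.4%, 923 calls). NESTIN-GFP precursors were at 93.3% and mdDA neurons at 43.1%. The promoter placed on it (wider search) is that of Gm46972, a predicted gene.

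Chromosome 4 held 4 of the 16 losing runs. The run at 62882774 to 62882891 went from 83.6% to 44.3%, 6.28 kb from the placed promoter of the collagen gene Col27a1 (wider search). The run at 136684167 to 136684298 went from 84.5% (1257 calls) to 51.9% (1448 calls), with 13 of 13 positions lower. It lay between the promoters of the ephrin receptor Epha8 and the ligand Wnt4, which flank 1 protein-coding gene, Zbtb40. The runs at 107301614 to 107301808 and 153847718 to 153847862 went from 74.9% to 46.2% and from 65.6% to 39.3%.

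On chromosome 7, the run at 70947873 to 70948029 went from 84.6% to 46.7%, and the run at 143683191 to 143683252 from 83.1% (443 calls) to 47.4% (1023 calls). The other libraries set these runs apart. MdDA neurons had 95.4% in the first and 8.31% in the second, and NESTIN-GFP precursors had 92.8% and 68.4%. The first lay between the promoters of Otud7a, 358.2 kb away, and Mtmr10, 484.3 kb away. The nearest placed promoter, at 135.7 kb, was that of Klf13 (wider search).

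Of the 16 losing runs, 3 ended under 20% in iPSC-DA neurons. The run on chromosome 12 (74895259 to 74895385), between the promoters of Tmem30b and Snapc1, went from 45.9% (567 calls) to 14.2% (977 calls), with 10 of 10 positions lower and 12.1% in mdDA neurons. Between these promoters the gene table lists Hif1a, the oxygen-sensing transcription factor, and Prkch, a protein kinase C. The run on chromosome 16 (64873429 to 64873598) went from 40.5% (615 calls) to 9.77% (1116 calls), with 8.42% in mdDA neurons. The run on chromosome 2 (7002235 to 7002411), next to the placed promoter of the RNA-binding protein Celf2 at a distance of 208.9 kb, went from 30.3% (905 calls) to 9.2% (2011 calls), with 5.05% in mdDA neurons. In NESTIN-GFP precursors the 3 runs were at 88.1%, 82.6% and 48.2%.

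The other 6 losing runs ended between 24% and 44.9%. They lay on chromosome 11 (79619759 to 79619925, 74.4% to 37%), 15 (82752504 to 82752720, 57.3% to 24%), 5 (135273816 to 135273947, 70.7% to 41%), 8 (122756939 to 122757176, 66.7% to 42.2%), 6 (50840931 to 50841119, 57.0% to 34.5%) and 2 (180024368 to 180024697, 66.6% to 44.9%). The run on chromosome 11 lay between the promoters of Nf1, a regulator of RAS, and Suz12, a subunit of Polycomb repressive complex 2. These were 466.3 kb and 186.4 kb away and flank 6 protein-coding genes. The nearest placed promoter, at 101.6 kb, was that of Gm11205 (wider search). The run on chromosome 15 was 9.69 kb from the promoter of Tcf20 (wider search). The last run on chromosome 2 lay 44.6 kb from the promoter of Gata5, a factor of heart development.

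Levels of the losing runs in the other libraries were uneven. MdDA neurons were below iPSC-DA neurons in 12 of the 16 and under 20% in 9, and their median was 15.4%. NESTIN-GFP precursors were above iPSCs in 13 of the 16, with a median of 83.4%. Over all runs that started at 20% or more, NESTIN-GFP medians by bin of start were 93.2% to 96.2%. A level above iPSCs was thus common in that library at such starts. The mdDA medians of the same bins were 87.5% to 95.6%.

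**Figure D4:**
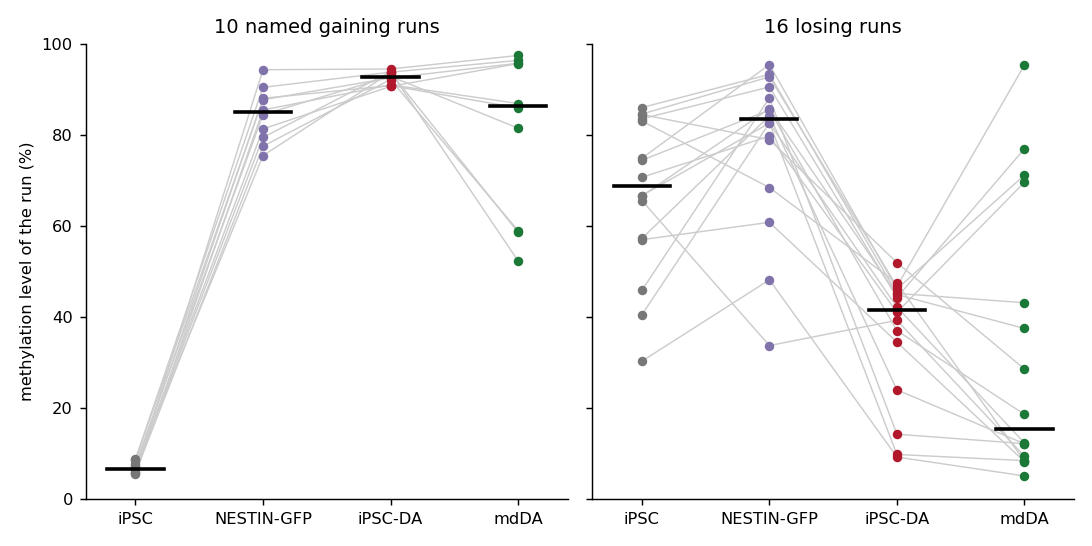
Methylation level (%) of the 10 named gaining runs (left) and the 16 losing runs (right) in the 4 libraries, 1 point per run, with grey lines joining a run and black bars at the median. The gaining runs go from under 9% in iPSCs to over 90% in iPSC-DA neurons, and the losing runs have medians of 68.7% in iPSCs, 41.6% in iPSC-DA neurons, 15.4% in mdDA neurons and 83.4% in NESTIN-GFP precursors.

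Groups of 3 to 9 positions with the same spacing were too short to be runs. Of 27977 such groups with at least 100 calls in each library, 11109 gained at least 20 points, or 39.7%, and 875 lost as much, or 3.13%. Losing groups had medians of 81.0% in iPSCs, 52.1% in iPSC-DA neurons, 92.5% in NESTIN-GFP precursors and 72.4% in mdDA neurons. Of the 864 with at least 50 calls in mdDA neurons, 43.1% were at 80% or more there and 18.6% under 20%.

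The 5 largest losses among short groups had changes of -78.8 to -64.2 points. A group of 3 positions on chromosome 17 (32029971 to 32029993) went from levels of 83.8% to 91.9% in iPSCs to levels of 5.88% to 11.9% in iPSC-DA neurons, or pooled from 88.3% (111 calls) to 9.45% (254 calls). It stood at 98.1% in NESTIN-GFP precursors and at 16.8% in mdDA neurons. A group of 6 on chromosome 8 (122906373 to 122906482) went from 86.2% (465 calls) to 13.5% (593 calls), with 15.4% in mdDA neurons. It shared its flanking promoters, those of 6430548M08Rik and Gse1, with the losing run on chromosome 8 described above, and lay 153.0 kb from that of Gse1. A group of 4 on chromosome 12 (12558734 to 12558847) went from 88.1% to 18.4%, with 15.7% in mdDA neurons. Groups on chromosomes 7 (35652591 to 35652616) and 8 (123426348 to 123426445) went from 93.2% to 23.5% and from 84.7% to 20.6%. All 21 positions of the 5 groups were lower in iPSC-DA neurons, and no level of a group in iPSCs overlapped its levels in iPSC-DA neurons. The groups were chosen as the largest losses, which favours such agreement, so it is no separate support for the losses.

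The 5 largest gains among short groups were of 91.9 to 95.6 points and ended between 97.8% and 99%. The largest, 8 positions on chromosome 13 (98254826 to 98254887), went from 3.46% (405 calls) to 99% (411 calls), with 98.9% in NESTIN-GFP precursors and 97.5% in mdDA neurons. Groups on chromosome 1 (170559805 to 170559859 and 188791890 to 188791929), 15 (25562774 to 25562845) and 19 (38458434 to 38458465) started between 5.12% and 6.76%. MdDA neurons were between 91.9% and 97.5% in these 5 groups.

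Placed promoters were mostly low in both libraries. Of the 3897 promoters placed with at least 12 covered positions, 679 gained at least 20 points, or 17.4%, and 0 lost as much, or 0%. Their median level was 4.01% in iPSCs and 5.77% in iPSC-DA neurons, and 74.4% moved by less than 5 points. With the wider search, 1299 of 6953 gained, or 18.7%, and 7 lost, or 0.101%. No test was made for single promoters.

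Among promoters placed with at least 12 positions, the 10 largest gains were read first. The promoter of Papolb, printed above, had levels of 0% to 42.4% in iPSCs and 86.4% to 100% in iPSC-DA neurons over 26 positions. Pooled, it went from 7.15% (6.04% to 8.43%, 1791 calls) to 94.4% (93.5% to 95.2%, 3128 calls), with 54.7% in mdDA neurons. Slc25a31, a mitochondrial ADP/ATP carrier of the testis, went from 15.4% to 95.9%, and Naa11, an acetyltransferase subunit of the testis, from 10.6% to 88.0%. Hormad1, a protein of meiotic chromosome axes, went from 12.1% (2436 calls) to 89.2% (2312 calls). Ddx4, Dmrtb1, a transcription factor of spermatogonia, and Hsf5, a heat shock factor of spermatocytes, reached 79.5%, 86.1% and 86.3%. The promoter of 4930467D21Rik, next to Naa11, reached 88.3%. In mdDA neurons, Slc25a31, Naa11, Hormad1, Ddx4, Dmrtb1 and Hsf5 lay between 75% and 96.4%.

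The others of the 10 were low in mdDA neurons. Gm38987, a predicted gene, went from 3.25% to 77.2%, with 4.49% in mdDA neurons. Ube2ql1, a ubiquitin-conjugating enzyme, went from 2.06% (2762 calls) to 70.6% (1406 calls), with 6.18%. By the wider search, and named after the values were seen, Atoh1, a proneural factor of the hindbrain and inner ear, had the largest change of all placed promoters. Its 10 positions went from levels of 0% to 13.0% in iPSCs to levels of 87.9% to 100% in iPSC-DA neurons, or from 2.22% (586 calls) to 95.5% (314 calls), while mdDA neurons had 4.39% (592 calls).

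The 10 lowest changes among promoters with at least 12 covered positions and at least 200 calls in each library were small, from -4.17 to -2.54 points. Dis3l2, an exonuclease, led them with 8.87% in iPSCs (6.88% to 11.4%, 620 calls) and 4.7% in iPSC-DA neurons (3.12% to 7.01%, 468 calls), and these intervals overlapped. Ano10, a member of the anoctamin family, went from 7.67% to 4.46%. The intervals also overlapped for Ano10, Niban2, Bid, Dusp8, Hus1 and Ttc39b. They did not overlap for Wdr74, a factor of ribosome assembly, with 7.74% (6.54% to 9.14%) and 5.1% (4.25% to 6.1%), nor for 2810002D19Rik and LOC115486982. Overlap of intervals is not a test of a difference.

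The 7 promoters that lost at least 20 points came from the wider search, with 5 to 8 covered positions each. Cck, printed above, went from 47.1% (42.5% to 51.7%, 446 calls) to 20.2% (17.7% to 23.0%, 881 calls), with 5 of 5 positions lower. Its positions lay between 31.3% and 68.7% in iPSCs and between 4.29% and 37.5% in iPSC-DA neurons, so that the ranges overlapped. NESTIN-GFP precursors had 78.4% and mdDA neurons 6.59%. Ckm, the creatine kinase of muscle, went from 76.9% to 56.8%, and Krtap17-1, a hair keratin-associated protein, from 48.1% (106 calls) to 27.0% (74 calls). The other 4 were predicted genes, with Gm46972 at 90.2% and 43.0%, Gm13387 at 75.7% and 37.3%, Gm38744 at 94.5% and 68.8%, and Gm45979 at 80.8% and 55.1%.

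All placed germline promoters gained. Of 25 listed genes, 6 had a placed promoter and all 6 gained at least 20 points, against 18.7% of all placed promoters. Their median change was 72.4 points, against 1.58 points over all placed promoters. Slc25a31 gained most, 80.5 points, followed by Hormad1, 77.1 points. The smallest gain was that of Asz1, a gene of the piRNA pathway, from 33.0% (515 calls) to 88.7% (1154 calls), also the highest start of the list (wider search). Mael, another piRNA gene, went from 8.42% to 82.4% (wider search). Ddx4 had levels of 0% to 43.1% over 42 positions in iPSCs and of 50% to 100% in iPSC-DA neurons, and the ranges did not overlap. All 6 were high in mdDA neurons, with 75% to 96.9%, and NESTIN-GFP precursors had a median of 90.3%.

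Imprinted genes reached intermediate levels. Of 30 listed genes, 8 had 9 placed promoters, of which 8 gained, against 18.7% of all placed promoters, with a median change of 43.7 points against 1.58 points over all. Igf2r, the receptor that clears IGF2, changed most, from 4.03% (3.20% to 5.07%, 1713 calls) to 66.7% (65.0% to 68.4%, 2957 calls), with 3.03% in mdDA neurons. A promoter of Gnas, the gene of a G protein subunit, followed, with 10.8% and 67.5% (wider search), whereas another promoter of Gnas, with 27 positions, had 3.33% and 4.8% and was the smallest change. Igf2, the fetal growth factor, went from 4.94% to 47.4% (wider search), and Grb10, an adaptor that restrains growth, from 3.31% to 41.5%. No promoter of the list was lower in iPSC-DA neurons.

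In 3 of the imprinted promoters mdDA neurons were at intermediate levels too. Plagl1, printed above, was at 3.10% in iPSCs (2.19% to 4.37%, 1000 calls), 51.7% in iPSC-DA neurons (48.8% to 54.6%, 1137 calls), 68.2% in NESTIN-GFP precursors (110 calls) and 46.2% in mdDA neurons (868 calls). Zrsr1, a splicing factor gene, was at 8.05%, 51.8%, 15.7% and 50.2% in the same order (wider search). The Gnas promoter of the wider search had 47.3% in mdDA neurons. At these promoters the neurons of both origins were thus near the middle of the scale and the iPSCs near its lower end. The other gaining promoters of the list were at 3.03% to 14.1% in mdDA neurons. The list also holds Ddx43, a helicase of the testis whose place among imprinted genes is uncertain, with 4.11% and 54.9% (wider search).

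Factors that pattern the nervous system and body gained almost throughout, to levels that mdDA neurons lacked. Of 49 listed genes, 16 had 18 placed promoters, of which 16 gained, against 18.7% of all placed promoters, with a median change of 32.2 points against 1.58 points over all. Six6, an eye field factor, had the largest gain, from 8.51% to 69.7% (wider search), and Lhx2, a forebrain factor, went from 16.1% (323 calls) to 63.2% (182 calls). The smallest change was that of Dlx2, an interneuron factor, from 2.96% to 15.7%. Among the rest were Nkx6-2, a ventral neural tube factor, from 3.52% to 49.3%, Tlx3, a factor of sensory neurons, from 5.19% to 46.3%, and Isl1, a motor neuron factor, from 5.53% to 36.7%. Over the list, mdDA neurons lay between 3.34% and 24.1%, with a median of 6.12%, against 5.50% over all placed promoters. Low mdDA levels were thus not particular to this list.

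Genes of mdDA neurons and of dopamine use were split between gains and smaller changes. Of 25 listed genes, 9 had 10 placed promoters, of which 6 gained, against 18.7% of all placed promoters. The promoter of Foxa2 printed above gained most, from 1.51% (1.08% to 2.12%, 2181 calls) to 42.4% (40.7% to 44.2%, 3146 calls), with 3.54% in NESTIN-GFP precursors and 1.18% in mdDA neurons. Its 15 positions reached 0% to 21.9% in iPSCs and 35.9% to 52.6% in iPSC-DA neurons. Lmx1b, a LIM homeobox factor of mdDA neurons, went from 6.41% to 46.5% (wider search), Wnt1, a ligand of the midbrain organizer, from 6.53% to 40.7%, and Drd2, the dopamine autoreceptor, from 4.53% to 33.9%. En1, a homeobox factor needed for survival of mdDA neurons, went from 2.39% to 32.1% (wider search).

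The remaining 4 promoters of that list changed by less than 20 points. Nr4a2, which codes for the mdDA factor NURR1, had 4.96% and 3.79%, and Msx1, a floor plate factor, had 3.17% and 4.35%. Bdnf, the neurotrophin, had the lowest change of the list, with 7.2% (5.42% to 9.5%) and 4.83% (3.46% to 6.71%), intervals that overlapped (wider search, like Nr4a2). Pitx3, whose reporter was used to sort the neurons, had 8.11% (4.70% to 13.6%, 148 calls) in iPSCs and 15.5% (9.88% to 23.4%, 110 calls) in iPSC-DA neurons, with 13.1% (122 calls) in mdDA neurons and 55.4% (65 calls) in NESTIN-GFP precursors (wider search). The iPSC and iPSC-DA intervals overlapped, and the difference was not tested.

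Of 25 genes of pluripotency, 6 had a placed promoter and 2 gained, a count too small to set apart from the 18.7% of all placed promoters. Fgf4, a growth factor of pluripotent cells, went from 4.59% (1764 calls) to 44.7% (1471 calls), and Sox2, a factor of pluripotent and neural stem cells, from 4.90% to 42.7% (wider search). MdDA neurons had 5.47% at Fgf4 and 7.65% at Sox2. Tfcp2l1 went from 4.10% to 18.4%, while Klf2 had 7.91% and 8.93% and Klf4, the smallest change, 3.94% and 4.09% (wider search). Promoters of Pou5f1 and Nanog, the usual markers of iPSCs, were not placed, so the iPSC label was not checked by them.

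Of 15 genes of the methylation machinery, 7 had 8 placed promoters and 1 gained, near the share of 18.7% of all placed promoters. Tet2, which oxidizes 5-methylcytosine, went from 2.77% (2.34% to 3.28%, 4765 calls) to 31.4% (30.2% to 32.7%, 5031 calls) over 47 positions, with 2.94% in mdDA neurons (wider search). Dnmt3a, a de novo methyltransferase, followed with 3.56% and 17.4% over 53 positions, all higher. Dnmt3b, printed above, had 4.37% and 4.48%, the smallest change of the list. Dnmt1, the maintenance enzyme, had 4.06% and 9.16%, and Uhrf1, its partner at replication forks, 4.01% and 4.50%. Tdg, a DNA glycosylase, was the only one lower, with 4.88% and 4.69% (wider search).

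Of 26 housekeeping genes, 9 had a placed promoter and all 9 moved by less than 5 points, as did 70.4% of all placed promoters, with levels of 1.64% to 12.4% in iPSCs and 1.80% to 12.7% in iPSC-DA neurons. The largest change was at Ppia, cyclophilin A, from 6.27% to 11.2% (wider search), and the smallest at Gpi1, a glycolytic enzyme, from 6.20% to 6.23%. Of 20 genes of fibroblasts and stroma, the cells of origin and the feeder layer, 3 had a placed promoter, all by the wider search, and 0 gained, which 3 promoters cannot set apart from the 18.7% of all placed promoters. Col5a1 had 3.04% and 2.73%, Twist2 8.89% and 13.3%, and Vim 3.94% and 10.3%. None of 14 glial genes had a placed promoter. Whether feeder or glial cells were present among the sorted neurons was not tested.

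**Figure D5:**
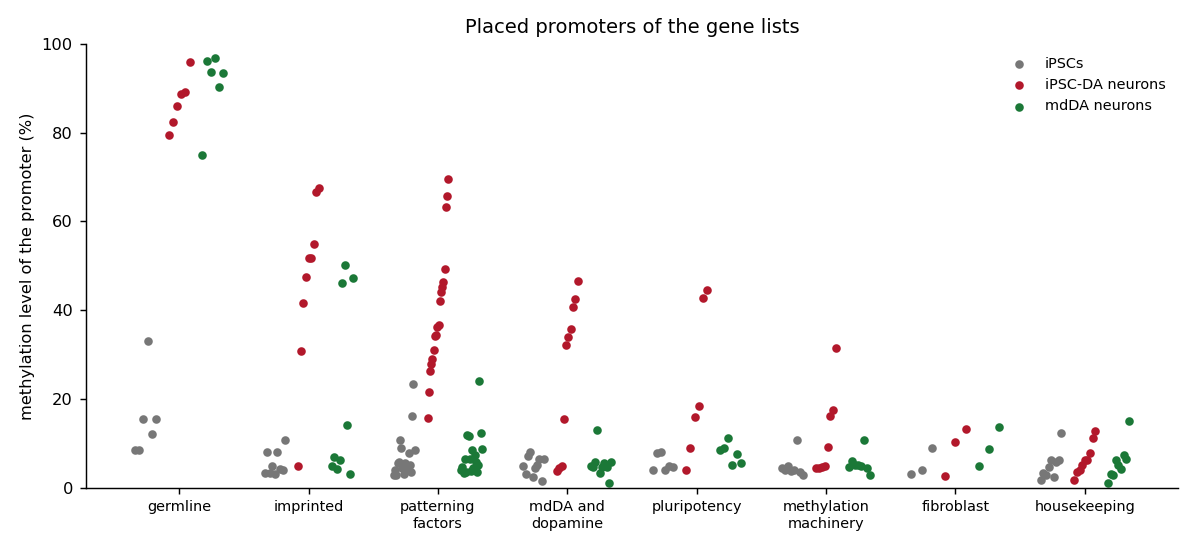
Methylation level (%) of placed promoters in iPSCs (grey), iPSC-DA neurons (red) and mdDA neurons (green), 1 point per promoter, grouped by gene list; glial genes have no placed promoter. Germline promoters end at 79.5% to 95.9% in iPSC-DA neurons, imprinted, patterning and mdDA promoters mostly between 20% and 70%, and housekeeping promoters under 13%.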

How the data were processed

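DNA cut with MspI was joined to adapters, bisulfite converted and amplified by PCR. The product was selected at 150 to 450 bp, amplified again and sequenced as single reads of 40 bases. The methods of the study name no molecular identifiers. Per the labels and the methods of the study, the authors used FastQC, Trim Galore 0.3.5, Bareback and Bismark 0.10.1, and deposited for each library the count of methylated and unmethylated calls per cytosine position. The percent column they deposited equals 100 times the methylated count over all calls. The genome build is not given in the sources used here.

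A level is the methylated share of calls, in percent, at autosomal positions with at least 5 calls in both libraries, each strand kept apart. Gain and loss mean a change of at least 20 points. Density, runs, short groups and promoters are defined where they first appear. Runs were compared by two-sided Fisher's exact tests with Benjamini-Hochberg adjustment (scipy 1.17.1, numpy 2.4.6, pandas 2.3.3). On simulated counts for 17475 runs, 100 of 100 raised and 98 of 100 lowered runs were called, and 0 unchanged ones. The simulated calls were independent and shared a level within a run, so linked calls and spread between libraries were absent. The count of unchanged runs called therefore does not measure false calls in these data. Of 300 simulated promoters, 267 were placed rightly and 33 fitted several places. Positions outside the simulated promoters were absent, so a false match elsewhere in the genome could not arise. The wider search was not simulated.

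Regions were named by size of change: the 10 largest gains and losses of called runs with at least 20 positions and 500 calls, the 5 largest of short groups with at least 100 calls, the 10 highest and 10 lowest changes among promoters placed with at least 12 positions and with at least 200 calls, and per gene list the 2 highest changes, the lowest and the smallest. Other list members, the 16 losing runs, the losing promoters, Atoh1 and the series of gaining runs were named after their values were seen. The comparison and the gene lists were chosen with earlier results of these data known. Alternatives changed the minimum number of calls, strand merging, depth, the size of change, window, spacing, run size and promoter placement. NESTIN-GFP and mdDA levels need at least 50 calls in the medians of gaining runs by final level and of short groups. Medians over all runs, over runs that neither gained nor lost, over series and over gene lists were taken without this minimum.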

Additional observations from a re-analysis of the deposited data

Results flagged for a closer look

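The X chromosome was left out of the comparison and showed a difference outside it. At 16815 X positions with at least 5 calls in both libraries, the mean level was 24.2% in iPSCs and 42.6% in iPSC-DA neurons, a change of 18.4 points, above the highest autosome (16.6 points on chromosome 7). There, 39.3% of positions gained and 3.71% lost at least 20 points. Calls on the X chromosome were raised in iPSC-DA neurons by 0.857 (log2) relative to the autosomes, the largest shift of any chromosome. With 1 library per group, these values have no replicate check, and the part of the shift in calls in the change of level was not tested.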

How the results depend on the processing

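Of 84 alternative values, 25 stayed within the limit set for them, 58 moved beyond it without a change of sign and 1 reversed. The values that moved could be smaller or larger than the main ones. The reversed value was the mean change of positions at 80% or more in iPSCs, -2.93 points by their own level and 2.7 points by the level of the strand partner. The other bins by partner had 13.5, 18.8, 24 and 12.9 points, from low to high start.

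With at least 10 calls the mean change was 14.2 points, with 31% gaining and 1.95% losing, and the bins by start had 14.3, 24.4, 26, 10.8 and -2.39 points. By density, the bins had 13 (1 to 2), 18.5 (6 to 10), 13.3 (11 to 20), 10.9 (21 to 40) and 10.6 points (over 40). With at least 30 calls the mean change was 13.5 points, with 29.7% gaining and 1.34% losing, and the bins by start had 13.4, 23, 25.8, 10.2 and -2.02 points. With at least 1 call, 32.2% gained and 4.86% lost. With strands merged, the mean change was 14.49 points, 32.1% gained, 2.66% lost and 7 runs lost. Without chromosome 10 the mean change was 14.3 points.

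With a change of at least 10 points, 42.3% of positions gained, 5.15% lost and 39 runs lost, and with 30 points 23% gained, 1.27% lost and 9 runs lost. Windows of 50 bp gave 13.7, 18.3, 15.4, 12.2, 11.1 and 5.05 points from sparse to dense, and windows of 250 bp gave 11.1, 16.7, 21.8, 18.3, 13 and 11 points. Gaps under 50 bp left 9 losing runs and gaps under 200 bp gave 27. Runs of at least 5 positions gave 12821 gaining and 331 losing, and runs of at least 20 positions 2839 and 0. The wider placement of promoters, chosen after seeing the data, moved the gaining share from 17.4% to 18.7% and the losing share from 0% to 0.101%. Where not explained by the setting itself, the cause was not tested. No paired analysis was possible because each group has 1 library, which leaves no replicate to take out.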
